A study of Mus musculus with 13 samples.

Results

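The interferon regulatory factor (IRF) genes were followed in 4T1 mouse mammary tumors treated with metronomic cyclophosphamide (CPA). The 8 members are Irf1, Irf2, Irf3, Irf4, Irf5, Irf7, Irf8 and Irf9. They were taken by gene symbol, with no use of their values, from the 24170 genes of the expression table, which writes mouse symbols in capitals. 4T1 is a mammary carcinoma cell line of BALB/c origin that serves as a model of triple-negative breast cancer. Cells were placed in a mammary fat pad of female mice of the same strain, so the tumors hold 1 transplanted line together with immune and stromal cells of an immunocompetent host. CPA, an alkylating prodrug that is activated in the liver, was injected at 130 mg/kg every 6 days.

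Polyadenylated RNA was sequenced from 13 libraries, each made from a pool of 2 to 3 tumors. Vehicle mice received PBS and gave 3 pools at 10 to 11 weeks of age. Tumors after 2 CPA cycles gave 3 pools at 10 to 11 weeks of age, and tumors after 4 CPA cycles gave 3 pools at 12 to 13 weeks. Tumors after 7 CPA cycles gave 2 pools at 14 to 15 weeks. Regrowing tumors, taken 18 days after CPA was halted at 4 cycles, gave 2 pools at 14 to 15 weeks. The study asked whether CPA turns on an interferon response in these tumors and whether that response lasts. Beyond 2 cycles, cycle number and age cannot be told apart in the comparison with vehicle, while 7 cycles and regrowth share an age.

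Each gene has 1 FPKM value per group (fragments scaled by transcript length and by library size, so that levels are per length). There is no value per library, so no spread, n or test stands beside any level or difference, and the sequencing depth behind a value is unknown. Differences are given as log2 of the ratio of FPKM + 0.1, a scale that understates the difference of low genes. A gene is called higher or lower when it passes 2-fold and has at least 1 FPKM in the higher of the 2 groups. The words higher and lower describe these group values only, and whether a difference exceeds the spread between pools was not tested.

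IRF proteins share a DNA-binding domain that reads GAAA repeats, the core of the interferon-stimulated response element (ISRE). In the induction phase, nucleic acid sensors signal through kinases such as TBK1 to IRF3 and IRF7, which turn on type I interferon genes. In the response phase, secreted interferon acts through its receptor to assemble ISGF3, a complex of STAT proteins with IRF9 that switches on interferon-stimulated genes (ISGs), among them Irf7 itself. IRF1 mediates much of the response to interferon gamma, IRF2 can compete with it, IRF5 and IRF8 act mainly in myeloid cells, and IRF4 acts in lymphocytes and dendritic cells.

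Promoter sequence is shown for the member with the largest difference and for the members that hold one of 2 motifs searched on both strands. These were the ISRE core, which is GAAA, any 2 bases and GAAA again, and the palindromic STAT site TTCNNNGAA. All 8 members had a RefSeq promoter window on GRCm38.p6 (11 windows, each running from 250 bases before to 50 bases after a start site). Oas3 and Isg15 are shown beside them because their pattern over the groups was among the 5 closest to that of Irf7, and each has an ISRE core in its window. Capitals mark a motif match, and each run is the gene's own strand.
Irf7 (chr7:141266525-141266674, minus strand, 250 to 101 bases before the start): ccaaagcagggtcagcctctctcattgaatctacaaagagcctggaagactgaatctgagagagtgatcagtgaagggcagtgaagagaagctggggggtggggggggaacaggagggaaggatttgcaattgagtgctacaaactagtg
Irf2 (chr8:46739495-46739554, plus strand, 250 to 191 bases before the start): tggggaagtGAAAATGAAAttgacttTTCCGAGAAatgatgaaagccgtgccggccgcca
Irf1 (chr11:53769884-53769953, plus strand, 130 to 61 bases before the start): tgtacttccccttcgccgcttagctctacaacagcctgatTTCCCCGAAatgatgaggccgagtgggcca
Irf8 (chr8:120736168-120736247, plus strand, 190 to 111 bases before the start): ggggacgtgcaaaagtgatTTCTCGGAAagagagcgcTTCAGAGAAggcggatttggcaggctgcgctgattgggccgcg
Oas3 (chr5:120777705-120777754, minus strand, 95 to 46 bases before the start): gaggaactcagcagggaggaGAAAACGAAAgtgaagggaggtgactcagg
Isg15 (chr4:156200867-156200916, minus strand, 98 to 49 bases before the start): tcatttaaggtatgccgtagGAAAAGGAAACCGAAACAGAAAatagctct

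Among the members, only Irf2 held the ISRE core in a window, starting 241 bases before its start site. Over all 32851 promoter windows of the same length, 3.44% held that core. The STAT site was found in 3 members: once in Irf1, 90 bases before the start, once in Irf2 at 224 bases, and at 171 and 153 bases in Irf8. Of all windows, 8.30% held it. Both percentages are shares of single windows, whereas members are counted by gene. Irf1, Irf8 and Irf9 had 2 windows each, and a match in either one counted. The 2 motifs did not overlap in these genes. Neither run of letters was found in the windows of Irf3, Irf4, Irf5, Irf7 or Irf9. A match describes the letters and not a bound site, and the lack of a match covers this window alone.

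Irf7, the interferon-inducible member that amplifies type I interferon production, showed by far the largest difference of the family. In mm9 the gene lies at chr7:148449081-148452323. Its level was 13.4 FPKM in vehicle tumors, 71.1 after 2 cycles of CPA, 76.0 after 4, 67.3 after 7 and 20.3 in regrowth. The level was thus high in all 3 groups on treatment, and regrowing tumors lay nearer to vehicle. On the log2 scale Irf7 was higher than vehicle by 2.39 after 2 cycles, 2.49 after 4 cycles and 2.32 after 7 cycles, which is 5.25-, 5.62- and 4.98-fold. In regrowth it was higher than vehicle by 0.59, short of the 2-fold limit. Regrowing tumors were lower than tumors after 4 cycles by 3.73-fold (log2 difference -1.90) and lower than tumors after 7 cycles by 3.31-fold (-1.73).

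Few genes of any kind had a larger difference from vehicle than Irf7. There were 56 among 11711 genes after 2 cycles, 64 among 11718 after 4 cycles and 124 among 11766 after 7 cycles. The 3 treated groups differed little among themselves. The log2 difference was 0.10 for 4 over 2 cycles and -0.17 for 7 over 4 cycles.

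Markers of neutrophils had high levels in the same groups as Irf7. Of the 8 markers, all at 1 FPKM or more in some group, 8 were past 2-fold over vehicle after 2 cycles, 6 after 4 and 7 after 7, and none of the 3 with at least 1 FPKM was in regrowth. Their summed FPKM was 287 after 2 cycles, 305 after 4, 472 after 7 and 54.7 in regrowth, against 53.0 in vehicle tumors. None was listed at 0 in all groups. The part of these cells in the Irf7 values was not tested.

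**Figure D1:**
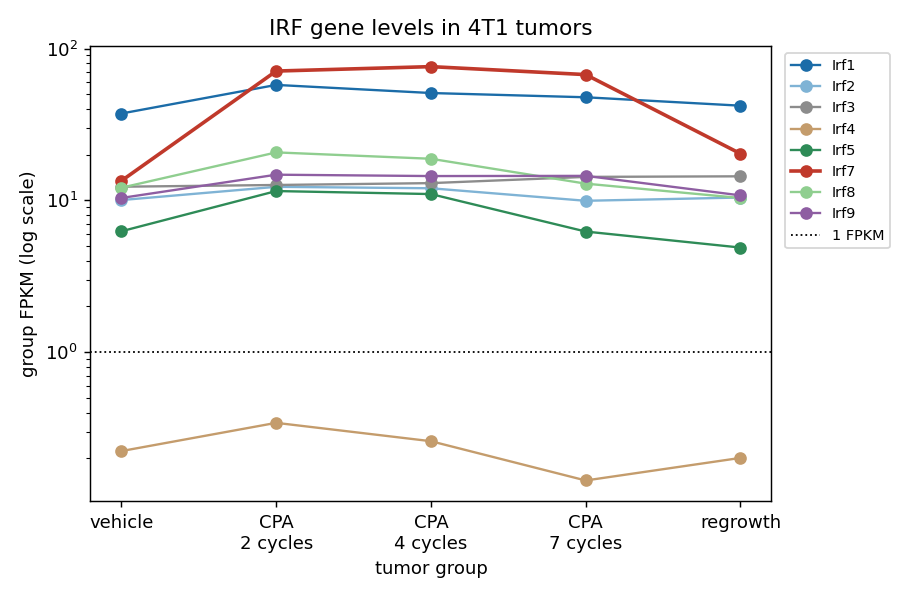
Group FPKM of the 8 IRF genes (log axis) in the 5 groups, with 1 point per group and no error bar because the values are per group. Irf7 lies at 71.1, 76.0 and 67.3 FPKM on treatment, against 13.4 FPKM in vehicle tumors, while Irf4 stays under the dotted line at 1 FPKM.

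Because FPKM is per length, levels can be ordered across members within a group. In vehicle tumors Irf1 ranked first with 37.3 FPKM and Irf7 second. After 2, 4 and 7 cycles Irf7 ranked first and Irf1 second, and in regrowth Irf1 was first again with 42.0 FPKM. The ratio of Irf7 to Irf1 was 0.36 in vehicle tumors, 1.23 after 2 cycles, 1.49 after 4, 1.41 after 7 and 0.48 in regrowth. Irf7 made up 13.2% of the summed FPKM of the 8 members in vehicle tumors, 35.4% after 2 cycles, 38.7% after 4, 38.9% after 7 and 17.9% in regrowth. The 5 members Irf2, Irf3, Irf5, Irf8 and Irf9 lay close together in vehicle tumors, between 6.26 and 12.3 FPKM, and their order within a group cannot be judged without a spread. Irf4 was last in every group.

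The summed FPKM of the family was 102 in vehicle tumors, 201 after 2 cycles, 196 after 4, 173 after 7 and 113 in regrowth. Without Irf7 the sum was 88.6, 129.8, 120.4, 105.7 and 93.1 FPKM in the same order of groups. As deposited, the sum without Irf7 was thus highest after 2 cycles and lay nearer to vehicle at each later time. These sums were not rescaled, and the FPKM sum of all genes was larger in each other group than in vehicle tumors. The order is therefore given for the deposited scale alone.

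Counted over the family, 7 of the 8 members had at least 1 FPKM, and these did so in all 5 groups. Irf7 was the only one past 2-fold after 2, 4 and 7 cycles, so that 1 of 7 was called higher and none lower each time. Among all genes tested, 3.23% were called higher and 0.811% lower after 2 cycles, 3.65% and 1.6% after 4 cycles, and 4.77% and 3.09% after 7 cycles. In regrowth no member was called against vehicle, with 1.72% of all genes called higher and 2.3% lower. Regrowth over 4 cycles had 2 of 7 members called lower, Irf7 and Irf5, beside 4.31% of all genes. Regrowth over 7 cycles had 1 of 7, Irf7, beside 3.2%. Between successive treated groups no member passed 2-fold, where 1.2% of all genes passed it in either direction for 4 over 2 cycles and 2.68% for 7 over 4 cycles.

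The median log2 difference of the 8 members from vehicle was 0.56 after 2 cycles, 0.46 after 4, 0.15 after 7 and 0.06 in regrowth. The median over all genes tested was 0.04, 0.06, 0.00 and -0.01 in the same order. The group FPKM sums differed, and rescaling each group to the same sum gave all-gene medians of -0.04, -0.10, -0.27 and -0.24. The log2 ratio of the sums, vehicle over the other group, was -0.08 after 2 cycles, -0.16 after 4, -0.27 after 7 and -0.23 in regrowth, and 7 members shifted by close to that amount. Irf4, whose level is near the added 0.1 FPKM, did not, with 0.45 after 2 cycles as deposited and 0.50 after rescaling. The share of calls that were higher also differed between the scales. The rescaled sum was 1000000, with the 1 FPKM minimum and the added 0.1 unchanged. Genes of lower deposited level therefore also entered the rescaled calls, and the share does not reflect the shift alone. This share was 79.9%, 69.5%, 60.6% and 42.8% as deposited, and 67.7%, 52.5%, 36.2% and 24.6% after rescaling. On the deposited scale 8, 8, 5 and 5 of the 8 members were above vehicle, and after rescaling 7, 7, 3 and 1. Every small difference below is therefore to be read against that shift.

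**Figure D2:**
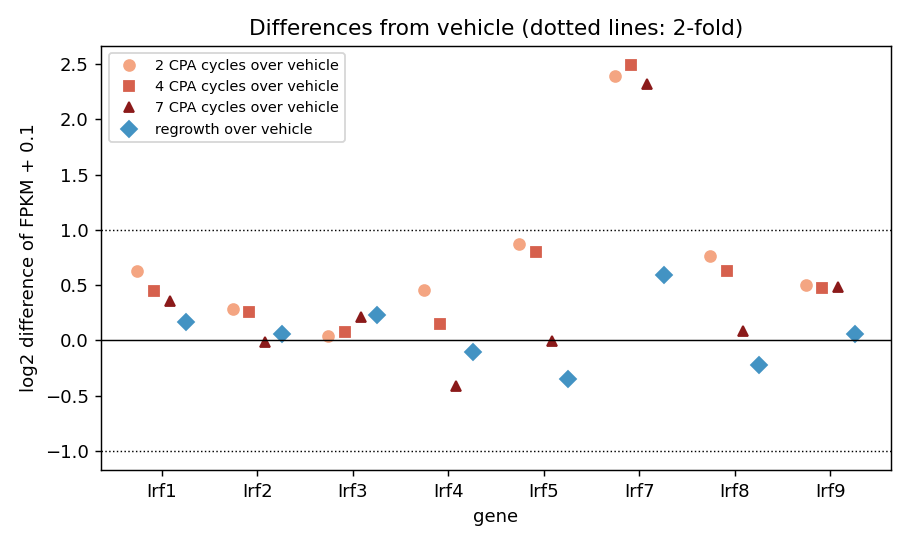
Log2 difference from vehicle of each IRF gene (FPKM + 0.1) after 2, 4 and 7 CPA cycles and in regrowth, 1 symbol per comparison, with dotted lines at 2-fold. Only Irf7 lies beyond 2-fold, at 2.39, 2.49 and 2.32 on treatment, and Irf5 and Irf8 lie between 0.63 and 0.87 after 2 and 4 cycles.

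Irf9, the DNA-binding subunit of ISGF3 (mm9 chr14:56222821-56228867), had 10.4 FPKM in vehicle tumors, 14.8 after 2 cycles, 14.5 after 4, 14.5 after 7 and 10.8 in regrowth. As deposited, the 3 treated groups were level with each other, and regrowth was near vehicle. The log2 difference of Irf9 from vehicle was 0.51, 0.48 and 0.48 on treatment as deposited. After rescaling to a common sum it was 0.43, 0.32 and 0.21, lower at each later time. In regrowth it was 0.06 as deposited and -0.17 after rescaling to a common sum, so that its side of vehicle turned round.

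Stat2, which carries IRF9 in the complex, differed more from vehicle than Irf9 did. It had 9.23 FPKM in vehicle tumors, 21.5 after 2 cycles, 19.1 after 4, 15.0 after 7 and 7.87 in regrowth. It was past 2-fold after 2 and 4 cycles and short of it after 7 cycles, at a log2 difference of 0.70. The level of Stat2 thus lay lower at each later time on treatment, whereas Irf9 was level on the deposited scale alone. Irf7 stayed near its highest value.

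Irf1, a mediator of interferon gamma responses and of MHC class I presentation (mm9 chr11:53583515-53591876), had 37.3 FPKM in vehicle tumors, 57.6 after 2 cycles, 50.9 after 4, 47.7 after 7 and 42.0 in regrowth. The highest value was that after 2 cycles, with a lower one at each later time. The log2 difference from vehicle was 0.62 after 2 cycles (1.54-fold), 0.45 after 4 and 0.35 after 7. In regrowth it was 0.17 as deposited and -0.06 after rescaling, on the other side of vehicle. Irf2, which can repress genes that IRF1 activates (mm9 chr8:47825098-47932812), differed less. It had 10.0 FPKM in vehicle tumors, 12.3 after 2 cycles, 12.0 after 4, 9.93 after 7 and 10.4 in regrowth. Its largest log2 difference from vehicle was 0.29, and its difference in regrowth, 0.05, became -0.17 after rescaling.

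Irf1 and Irf9 had the most similar pattern of any 2 members, with a root mean square distance of 0.10 between their 4 log2 differences from vehicle. Irf5 and Irf8 followed at 0.13, and Irf2 and Irf3 at 0.21. Irf7 was at least 1.68 from each of the other 6 compared. This distance depends on the size of the differences as well as on their course, and no other member had differences as large. As deposited, Irf9 was also level on treatment and near vehicle in regrowth, at smaller differences. Irf4 was left out of this measure because of its low level.

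Irf3, the sensor-activated factor that needs no prior interferon and is controlled by phosphorylation of its protein (mm9 chr7:52253017-52258218), had the narrowest range. Its level was 12.3 FPKM in vehicle tumors, 12.6 after 2 cycles, 13.0 after 4, 14.3 after 7 and 14.4 in regrowth. The highest value was 1.17 times the lowest. Its log2 differences of 0.04, 0.08, 0.21 and 0.23 became -0.04, -0.08, -0.06 and -0.00 after rescaling, so the table gives Irf3 no direction that holds on both scales. RNA levels do not report on the phosphorylation of IRF3.

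Irf5 and Irf8 formed a pair with a course unlike that of Irf7. Irf5, which drives inflammatory cytokine genes downstream of Toll-like receptors and MyD88 (mm9 chr6:29476624-29487320), had 6.26 FPKM in vehicle tumors, 11.5 after 2 cycles, 11.0 after 4, 6.23 after 7 and 4.89 in regrowth. It was higher than vehicle after 2 and 4 cycles by 1.83- and 1.75-fold, at vehicle level after 7 cycles, and lowest in regrowth. For 7 over 4 cycles its log2 difference was -0.81, and only 273 of the 11696 genes tested had a lower one. Regrowing tumors were lower than tumors after 4 cycles by 2.23-fold (-1.15).

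Irf8, a factor needed for the development of monocytes and dendritic cells (mm9 chr8:123260257-123280592), had 12.1 FPKM in vehicle tumors, 20.7 after 2 cycles, 18.8 after 4, 12.9 after 7 and 10.4 in regrowth. Its order of groups was close to that of Irf5. The log2 difference from vehicle was 0.77 after 2 cycles (1.70-fold) and 0.63 after 4 cycles. After 7 cycles it was 0.09 as deposited and -0.18 after rescaling, which changes its side. Regrowing tumors were lower than tumors after 4 cycles by 1.81-fold, just inside the 2-fold limit.

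Spi1 and the median of the macrophage markers had a like course over the groups. Neutrophil markers, which are also myeloid, did not, with their highest summed FPKM, 472, after 7 cycles. Spi1 encodes PU.1, the partner that brings IRF8 and IRF4 to composite sites in myeloid and B cells. It had 16.8 FPKM in vehicle tumors, 28.5 after 2 cycles, 27.8 after 4, 18.3 after 7 and 13.1 in regrowth. Among 10 macrophage markers the median log2 difference from vehicle was 0.45 after 2 cycles, 0.67 after 4, -0.14 after 7 and -0.44 in regrowth. One of the 10, Lyz2, was past 2-fold higher after 4 cycles, and none after 2 or 7 cycles or in regrowth. Their summed FPKM was 892 in vehicle tumors, 1230 after 2 cycles, 1614 after 4, 979 after 7 and 775 in regrowth, and no marker was at 0. Cd68, a lysosomal protein of macrophages, had 18.1, 31.0, 31.4, 16.9 and 12.4 FPKM in that order. Csf1r, the receptor for macrophage growth factor, did not share the early part and had 27.9, 28.3, 28.0, 14.6 and 15.1 FPKM. The part of these cells in the Irf5 and Irf8 values was not tested, and in bulk tumor RNA fewer cells of a type and less RNA per cell cannot be told apart.

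Of 4 genes listed as IRF8 targets, none was past 2-fold over vehicle in any group. At most 4.77% of all genes were called higher in any of them, so 0 of 4 is near that share. Cybb, a subunit of the phagocyte oxidase, was past 2-fold lower in regrowth than after 4 cycles, with 6.58 FPKM in regrowth against 15.7 after 4 cycles. Cst3 and Klf4, a protease inhibitor and a monocyte transcription factor, were not. Cybb was also the gene closest to Irf5 over the groups, at a distance of 0.05 among 10709 genes with at least 1 FPKM in every group. Of the 5 IRF5 targets listed, Tnf had 1.59 FPKM after 2 cycles and 1.47 after 4, against 0.52 in vehicle tumors. Its log2 difference from vehicle was 1.44 after 2 cycles and 1.34 after 4. After 7 cycles, where Irf5 was at vehicle level, Tnf was still past 2-fold, at 1.05. Il23a had 5.63 FPKM after 2 cycles and 14.0 in regrowth, against 8.62 in vehicle tumors. The cytokine genes Il6, Il12a and Il12b stayed under 1 FPKM in all groups.

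**Figure D3:**
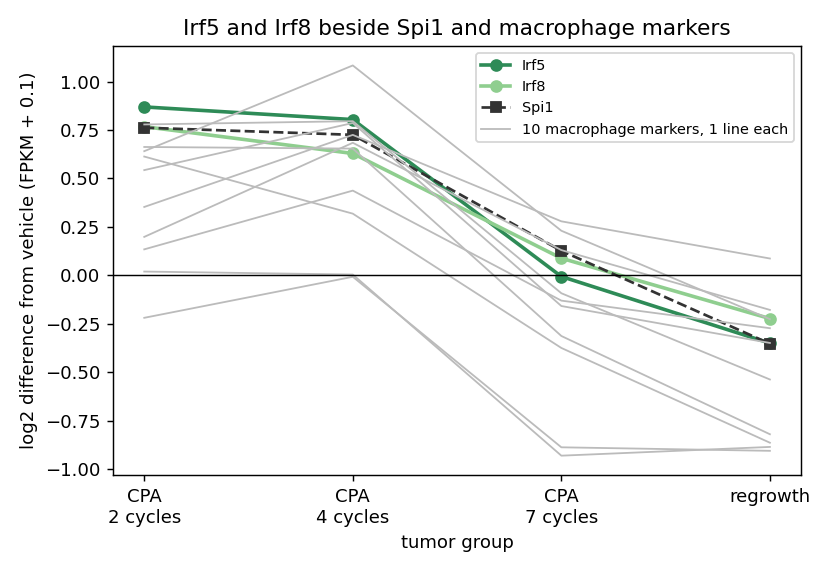
Log2 difference from vehicle (FPKM + 0.1) of Irf5, Irf8, Spi1 and 10 macrophage markers after 2, 4 and 7 CPA cycles and in regrowth, 1 line per gene and 1 value per group. Irf5 lies at 0.87 and 0.80 after 2 and 4 cycles, at -0.01 after 7 cycles and at -0.35 in regrowth, and Spi1 at 0.76, 0.73, 0.13 and -0.35.

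Irf4, a factor of lymphocytes, plasma cells and some dendritic cells (mm9 chr13:30841126-30858796), was close to the lower limit of the data. It had 0.22 FPKM in vehicle tumors, 0.34 after 2 cycles, 0.26 after 4, 0.14 after 7 and 0.20 in regrowth, and was left out of the calls. Genes of the B lineage had a different course. Cd79a, a subunit of the B cell receptor, had 1.54 FPKM in vehicle tumors, 0.56 after 2 cycles, 0.18 after 4, 0.13 after 7 and 4.24 in regrowth. In regrowth, where 5 of the 8 B cell and plasma cell markers with at least 1 FPKM were past 2-fold over vehicle, Irf4 had 0.20 FPKM against 0.22 in vehicle tumors. Prdm1, a regulator of plasma cell formation listed as an IRF4 target, had 1.39 FPKM in regrowth and 1.61 in vehicle tumors. None of the 3 listed targets at 1 FPKM or more was past 2-fold over vehicle in any group. With at most 4.77% of all genes called higher in any group, 0 of 3 is near that share.

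The other genes of the pathway were taken from lists and run from sensor to target. Of 17 sensors and adaptors, 16 had at least 1 FPKM after 2 cycles, and 2 of these were past 2-fold over vehicle, Zbp1 and Dhx58. After 4 cycles 3 of 16 were, Dhx58, Zbp1 and Ifih1, and after 7 cycles 2 of 14 were higher, Dhx58 and Zbp1, and 1 lower, Tlr8. Zbp1, a sensor of Z-form nucleic acid, had 10.2 FPKM in vehicle tumors, 29.8 after 2 cycles, 28.5 after 4, 20.7 after 7 and 10.1 in regrowth. Dhx58, a regulator of RIG-I and MDA5 signaling, had 4.59, 11.8, 13.3, 14.4 and 6.93 FPKM in the same order. The list median was 0.51 after 2 cycles, 0.48 after 4, 0.03 after 7 and -0.14 in regrowth.

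The endosomal receptors that signal through MyD88 to IRF5 and IRF7 were low. Like Irf5, they had higher values after 2 and 4 cycles than after 7 cycles and in regrowth. Tlr7, a sensor of single-stranded RNA, had 0.94 FPKM in vehicle tumors, 1.5 after 2 cycles, 1.90 after 4, 0.88 after 7 and 0.81 in regrowth. Tlr9, a sensor of unmethylated DNA, had 0.67, 1.28, 1.09, 0.34 and 0.39 FPKM. Tlr8 was lower than vehicle by 2.27-fold after 7 cycles and by 2.33-fold in regrowth. Tlr9 also lay below vehicle after 7 cycles, at a log2 difference of -0.81, where Irf5 was at vehicle level. Unc93b1, the chaperone that delivers these receptors to endosomes, had 24.0, 34.6, 36.7, 22.4 and 20.2 FPKM.

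The enzymes that act on IRF proteins differed little. Of 14 kinases and ubiquitin ligases, all with at least 1 FPKM, none passed 2-fold in any comparison with vehicle. Over all genes tested, 3.23%, 3.65%, 4.77% and 1.72% were called higher after 2, 4 and 7 cycles and in regrowth. The shares called lower were 0.811%, 1.6%, 3.09% and 2.3%. A count of 0 in a list this short is near those shares. The median log2 difference of the 14 was 0.14 after 2 cycles, 0.15 after 4, -0.06 after 7 and -0.03 in regrowth. Over all genes tested it was 0.04, 0.06, 0.00 and -0.01. Tbk1, the kinase of IRF3 and IRF7, had between 11.4 and 13.8 FPKM in CPA and regrowing tumors, against 12.0 FPKM in vehicle tumors. Of the interferon receptors and their kinases, 0 of 7 were past 2-fold in each comparison with vehicle, which is also near the shares over all genes. Ifnar1, a chain of the type I interferon receptor, had 6.76 FPKM in vehicle tumors, 6.76 after 2 cycles, 6.18 after 4, 4.89 after 7 and 5.33 in regrowth.

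The interferon genes themselves gave almost no signal. Of 21 ligand genes, none reached 1 FPKM in any group and 11 were listed at 0 in all groups. Ifnb1, the type I interferon that IRF3 and IRF7 induce, was at 0.05 FPKM or less throughout. Ifng, the type II interferon of T and NK cells, had 0.14 FPKM in vehicle tumors, 0.62 after 2 cycles, 0.47 after 4, 0.17 after 7 and 0.11 in regrowth. It was the highest of the list in every group. An entry listed at 0 is not read as absence, since Hmgcs1, an enzyme used by all cells, was also listed at 0 in all 5 groups.

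Of 11 partners and corepressors of IRF proteins, 10 had at least 1 FPKM. Stat2, Batf and Batf2 were past 2-fold over vehicle after both 2 and 4 cycles. Batf2, a leucine zipper partner of IRF1 and IRF8, had 1.95 FPKM in vehicle tumors, 6.97 after 2 cycles, 4.67 after 4, 4.69 after 7 and 2.02 in regrowth. It was the only one of the 10 past 2-fold after 7 cycles, and none was in regrowth. Irf2bp1, Irf2bp2 and Irf2bpl, the binding proteins and corepressors of IRF2, stayed within 0.40 of vehicle on the log2 scale at all times.

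**Figure D4:**
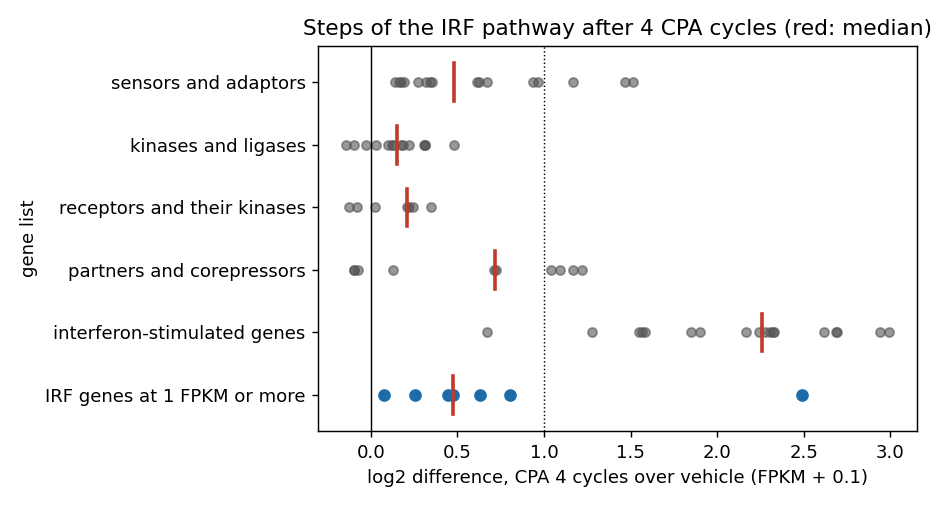
Log2 difference after 4 CPA cycles over vehicle (FPKM + 0.1) for genes with at least 1 FPKM in 5 pathway lists and for 7 IRF genes, 1 point per gene, with red bars at the medians and a dotted line at 2-fold. The median is 0.48 for sensors and adaptors, 0.15 for kinases and ligases, 0.21 for receptors and their kinases, 0.72 for partners and 2.26 for ISGs, and Irf7 is the blue point at 2.49.

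Irf7 had the course of the ISGs bound by ISGF3. Of 18 such genes, all with at least 1 FPKM, 17 were past 2-fold over vehicle after 2 cycles, 17 after 4 and 17 after 7, and in regrowth 1 was, the deconjugating protease gene Usp18. The median log2 difference was 2.01 after 2 cycles, 2.26 after 4, 1.99 after 7 and 0.49 in regrowth. Irf7 stood in the upper part of this list, with 4 of the 18 genes above it after 2 cycles, 5 after 4, 7 after 7 and 5 in regrowth. The genes with the largest differences after 4 cycles were Oasl1 (2.99), Rsad2 (2.94), Ifit1 (2.69) and Cmpk2 (2.69), all antiviral effectors. The gene with the smallest was Eif2ak2, the kinase PKR, at 0.67.

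The 5 genes closest to Irf7 among 10709 were Oas3, Cmpk2, I830012O16Rik, Plac8 and Isg15, at distances of 0.13, 0.16, 0.17, 0.19 and 0.21. None of the 10709 lay within 0.1 of Irf7, whereas 30 genes lay that close to Irf1, 233 to Irf2, 620 to Irf3, 8 to Irf5, 15 to Irf8 and 73 to Irf9. Such a count depends on the size of the differences, because few genes of any kind differ from vehicle as much as Irf7. It is therefore no measure of how particular the course of Irf7 is. Oas3 and Cmpk2 belong to the ISG list as does Isg15, a ubiquitin-like modifier with 16.5 FPKM in vehicle tumors, 74.5 after 2 cycles, 82.1 after 4, 84.9 after 7 and 31.0 in regrowth. Plac8, which is not on the list, had 11.0, 60.4, 58.4, 44.5 and 14.5 FPKM in the same order.

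After CPA was halted, 23.7% of the 4 cycle log2 difference of Irf7 was left in regrowth. The ISG list had a median of 22.2% left, over a range of -8.83% to 53.6%, and 10 of the 18 genes had less left than Irf7. Of the 18 genes, 16 were past 2-fold lower in regrowth than after 4 cycles.

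**Figure D5:**
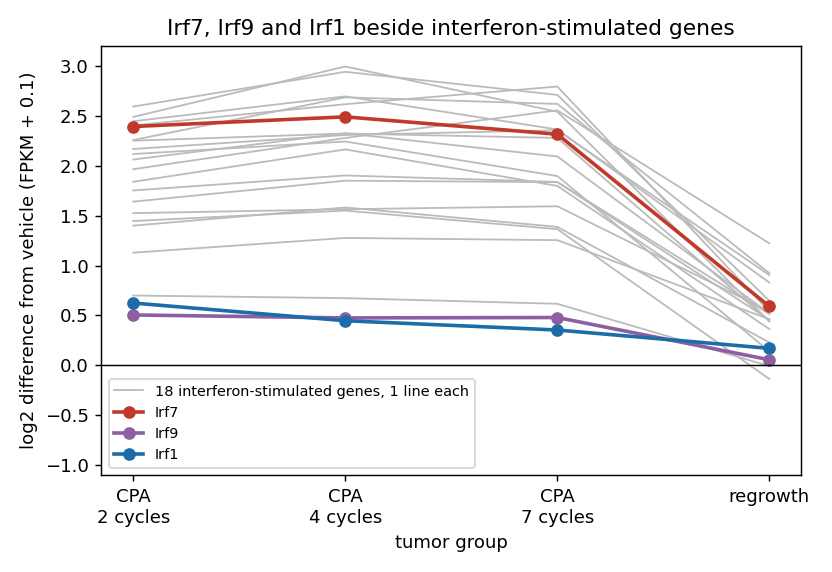
Log2 difference from vehicle (FPKM + 0.1) of Irf7, Irf9, Irf1 and 18 ISGs after 2, 4 and 7 CPA cycles and in regrowth, 1 line per gene and 1 value per group. Irf7 runs in the upper part of the ISG lines at 2.39, 2.49, 2.32 and 0.59, while Irf9 and Irf1 lie at or below 0.62 throughout.

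The 10 genes listed as IRF1 targets gave a mixed picture. After 2 cycles 3 were past 2-fold over vehicle, Socs1, Tap1 and Gbp2, after 4 cycles 1, Psmb9, after 7 cycles 3, Psmb9, Psmb8 and Casp1, and in regrowth Psmb9 was higher and Nos2 lower. Socs1, a feedback inhibitor of JAK kinases, had 5.36 FPKM in vehicle tumors, 15.4 after 2 cycles, 9.97 after 4, 6.94 after 7 and 4.73 in regrowth. This order of groups on treatment is that of Irf1. Psmb9, a subunit of the immunoproteasome, instead had 34.3, 67.2, 76.1, 86.9 and 75.5 FPKM, and stayed high in regrowth where Irf1 was at 42.0 FPKM against 37.3 in vehicle tumors.

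Markers of other cells that hold IRF proteins were read in the same groups. All 9 epithelial markers of the labelled mammary tumor were above 1 FPKM in all groups, with Krt8 between 262 and 348 FPKM. Their summed FPKM was 809 after 2 cycles, 982 after 4, 1330 after 7 and 1254 in regrowth, against 889 in vehicle tumors. None was past 2-fold over vehicle after 2 or 4 cycles, while 4 were after 7 cycles and 3 in regrowth. The 7 markers of plasmacytoid dendritic cells summed to 22.0 FPKM after 2 cycles, 21.9 after 4, 37.3 after 7 and 25.6 in regrowth, against 21.9 in vehicle tumors, and Tcf4 and Ly6d made up most of each sum. These cells hold high levels of IRF7. Of the 7 markers, 3 stayed under 1 FPKM in all groups. These were Siglech, which reached at most 0.62 FPKM, Ccr9 with 0.20 and Pacsin1 with 0.15. Among those with at least 1 FPKM, 2 of 3 were past 2-fold over vehicle after 2 cycles and 1 of 2 after 4. After 7 cycles 2 of 3 were, and 1 of 2 in regrowth. Ly6d, which is not particular to these cells, had 13.6 FPKM after 7 cycles against 0.48 in vehicle tumors. Of the 8 conventional dendritic cell markers 6 stayed under 1 FPKM, and the sum was 13.3 FPKM after 2 cycles, 13.2 after 4, 9.31 after 7 and 6.51 in regrowth, against 6.31 in vehicle tumors. NK cell markers summed to 10.7, 9.47, 7.12 and 4.38 FPKM in these groups, against 4.06 in vehicle tumors, and T cell markers to 13.6, 9.39, 7.22 and 10.2 FPKM, against 6.44. Of the stroma, fibroblast markers summed to 620, 443, 288 and 401 FPKM, against 995 in vehicle tumors, and endothelial markers to 34.8, 23.6, 19.6 and 32.6 FPKM, against 31.8. The part of these cells in the values of the other members was not tested.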

How the data were processed

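The submitters' notes list the tools TopHat2, featureCounts and edgeR with the mouse build mm9, with versions not given in the sources used here. Strand-specific libraries were made from polyadenylated RNA. The deposited table gives the authors' FPKM, 1 value for each gene in each group. How the pools of a group were combined is not given. A further 12 columns hold the authors' own ratios, fold changes and p-values, and were not used. Of 24197 lines, 27 with a date in place of a symbol were left out, which left 24170 genes, of which 3602 were at 0 in all groups.

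The planned count model needs values per library and could not be run. Genes were compared by log2 of FPKM + 0.1 in the 8 pairs of groups described, and called past 2-fold with at least 1 FPKM in the higher group. This calling was tested on simulated data. Alternatives were pseudocounts of 1 and 0.01, minimums of 0.5 and none, a fold of 1.5, rescaling to a common sum and centring on the median. Named genes were all members, at most 4 genes past 2-fold per list, the members of small counts, markers near 0 and the 5 genes closest to a called member by root mean square distance. Closest genes of the other members, and list genes given to show a step of the pathway, were chosen after their values were seen. The members and the 10 pathway and 10 marker lists (191 symbols, all found, of which a few are not reported here by name) were chosen with earlier results of these data known. Promoters came from RefSeq (GRCm38.p6), and gene coordinates are those of the table (mm9). Only 74.1% of genes and 14 of 18 ISGs had a promoter window, under the 80% set, so comparing genes by motif was void. Python 3.11.15, numpy 2.4.6, pandas 2.3.3 and matplotlib 3.10.9 were used.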

Additional observations from a re-analysis of the deposited data

How the results depend on the processing

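All 256 log2 differences of members under the alternatives kept their side of the 2-fold limit, and 52 of the 56 counts of IRF genes past it stayed within 1.5 times. The other 4 came with a fold of 1.5, which raised the count after 2 cycles to 4 (Irf1, Irf5, Irf7 and Irf8), after 4 cycles to 3 (Irf5, Irf7 and Irf8), in regrowth to 1 (Irf7) and for 7 over 4 cycles to 1 (Irf5, lower). The Irf7 difference from vehicle ranged from 2.32 to 2.4 after 2 cycles, 2.34 to 2.50 after 4, 2.05 to 2.32 after 7 and 0.36 to 0.60 in regrowth. Rescaling to a common sum changed calls over all genes from 378 higher and 95 lower to 638 and 304 after 2 cycles, from 428 and 188 to 656 and 593 after 4, from 561 and 364 to 720 and 1268 after 7, and from 200 and 267 to 306 and 939 in regrowth. The common sum was 1000000, against 214214 in vehicle tumors and 258724 after 7 cycles as deposited. The 1 FPKM minimum was kept on the rescaled values, so these changes also come from genes of lower level that entered the calls. Leaving out a pool could not be done on group values. No paired analysis was possible because the table holds no value per library. Depth is unknown, so low values such as those of Irf4 and the interferon genes have no known error.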
